A study of Homo sapiens with 12 samples.

Results

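Mock cells are HEK293T cells that carry only the empty inducible Sleeping Beauty vector pSBTet-GP, without any t(4;11) fusion gene, and they are the baseline from which the chromatin of the other cells of the series was judged. They were selected by their labels, which mark 3 of the 12 samples as Mock, and their ATAC-Seq counts were described here as a state of their own, without a comparison with the cells that express fusion proteins. Entries for mitochondrially encoded genes and, by their symbols, for nuclear copies of mitochondrial genes were dropped first, which left 52440 of the 52889 gene entries of the table. The labels name the samples as replicates BR1 to BR3 and the study calls them biological replicates, but neither gives the day of harvest, nor says whether the Mock cells received the doxycycline with which the series induced its transgenes. HEK293T is an established line of human embryonic kidney cells that was transformed with a fragment of adenovirus type 5 and later received the SV40 large T antigen, and its chromosome number is not that of a normal cell. All Mock cells were stably transfected, grown in DMEM with serum, and share the line's own alterations.

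In ATAC-Seq, a transposase inserts sequencing adapters into DNA that is not covered by nucleosomes, so that open promoters and enhancers yield more reads than closed chromatin. Promoters of genes that every cell uses often lie in CpG islands and are open in most cell types, while genes of differentiated tissues often have promoters poor in CpG. HEK cells were taken from embryonic kidney tissue, but they are also known to carry transcripts of neuronal genes, and a neural or adrenal origin has been discussed for them. The lists below therefore cover housekeeping, kidney, neural, adrenal and other tissue genes. The deposited value is 1 count per gene entry, so reads at a promoter cannot be told apart from reads in the body of a gene, and the number of DNA copies cannot be told apart from openness.

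The total count was 434031, 501324 and 353430 in Mock replicates 1 to 3, and 70.7% ± 0.369 (SD, n = 3) of it was kept, 249221 to 356673 counts per replicate. Levels are given as counts per 1e6 kept counts (CPM), and 1 read was worth 2.80 to 4.01 CPM. At this depth 22759 entries (43.4%) had at least 1 count in each replicate and 11568 (22.1%) had none in any. The median protein-coding gene had 9, 11 and 8 counts. A count of 0 allows a level of up to 9.80, 8.41 and 12.0 CPM in replicates 1 to 3 (3 counts each), which covers counting error only, so a gene with no count cannot be called closed. The biological coefficient of variation between the replicates was 0.0798 over 18201 entries (edgeR).

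Protein-coding genes received 79.0% ± 0.526 (SD, n = 3) of the kept counts, and 15837 of the 19039 that could be placed on the genome (83.2%) had a count in every replicate. Entries named only by a genomic clone took 11.5% ± 0.230, long noncoding RNA genes 5.31% ± 0.0725 and pseudogenes 2.68% ± 0.216 of the kept counts. Repeated or joined entries, which include ribosomal RNA genes, took 0.721%, entries for miRNAs 0.226% and those for small nucleolar RNAs 0.107%. A single pseudogene entry received 2.90 CPM on average (median 0.935) and a protein-coding gene 41.5 CPM (median 31.3). Gene span, which moves the count as described below, was not taken into account in these values. The counts were spread over many entries. The 10 highest held 1.05% of the kept counts, the 100 highest 3.59%, and 4766 entries were needed to reach 50% of them.

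Of the 100 highest entries reported here 81 were protein-coding, but the highest were joined, ribosomal and clone-named entries. RF00004, an entry that joins 17 identifiers of the U2 small nuclear RNA of the spliceosome, was highest with 1739 ± 219 CPM (SD, n = 3). AL669831.3 had 1721 ± 43.2 CPM and AC010619.2 had 1001 ± 45.8 CPM, and both are named only by their clones. The entries FP671120.3, FP236383.2, FP236383.3 and FP671120.4 come from clones with ribosomal DNA, and RNA5-8SN4, which joins 5 identifiers, is a 5.8S ribosomal RNA gene with 958 CPM. RF01518 (10 joined identifiers) had 796 CPM, and RF00003, which joins 15 identifiers of the U1 small nuclear RNA, had 405 CPM. MIR6723, whose sequence lies in a nuclear insertion of mitochondrial DNA but whose symbol does not mark it as a copy, had 523 CPM. In these entries the number of genomic copies, and the way reads that fit several copies were counted, cannot be told apart from openness. Among the other types, the highest pseudogenes were DNM1P47 (77, 88 and 62 counts) and SSPO (70, 65 and 47 counts), and the highest small nucleolar RNA genes were SNORD3A (92, 120 and 79 counts) and SNORD3B-1 (69, 69 and 54 counts), both for U3, which acts in the processing of ribosomal RNA. RNU2-1 (48, 57 and 39 counts) and RNU1-4 (38, 38 and 19 counts), entries for small nuclear RNAs with 1 identifier each, led the other small RNAs. MIR3648-1 (12, 17 and 22 counts) was the second miRNA entry. For these entries, too, the number of genomic copies cannot be told apart from openness. The highest immune receptor segments, TRAV8-2 (11, 10 and 5 counts) and IGHG4 (7, 7 and 5 counts) had few counts, and 139 of 331 such segments had none in any replicate. HELLPAR (71, 60 and 34 counts) and SEPT2 (42, 52 and 59 counts) led the entries whose symbols were not matched to a gene type, which says nothing about their true type. The highest lncRNA entries, 1 of them among the 15 highest of all, are not reported here.

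The highest protein-coding gene was RBM15 (ENSG00000162775, chromosome 1, 110339377 to 110346677), which encodes an RNA-binding protein of the m6A methylation complex. It had 146, 158 and 119 counts in replicates 1 to 3, or 466 ± 19.8 CPM (SD, n = 3). TLE4, a corepressor of the Groucho family, followed with 142, 166 and 85 counts (424 ± 71.4 CPM), and AKT1S1, which encodes the mTORC1 subunit PRAS40, with 117, 153 and 96 counts (399 ± 26.1 CPM). The range of TLE4 overlapped those of RBM15 and AKT1S1, whereas the lowest replicate of RBM15 (443 CPM) lay above the highest of AKT1S1 (429 CPM). PRDM9, the histone methyltransferase that places recombination in meiosis and is known for its expression in germ cells, was the fourth with 123, 144 and 94 counts (394 ± 14.8 CPM). Its replicates ranged only from 377 to 404 CPM.

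The next protein-coding genes were of very different span. PCDH9, a protocadherin gene of 928 kb, had 377 ± 78.6 CPM, with replicate 1 (467 CPM) above replicates 2 and 3 (334 and 329 CPM). JUN, the AP-1 transcription factor gene, spans 3.26 kb and had 112, 108 and 89 counts (342 ± 34.2 CPM). RNF40, a ubiquitin ligase for histone H2B, had 359 ± 20.8 CPM, and USP1, a deubiquitinase of DNA repair, had 330 ± 41.7 CPM. Further members of the 20 highest included the zinc finger gene ZNF771, the tRNA splicing gene TSEN34, the mitochondrial protease gene SPG7, the guanylate kinase gene GUK1, DESI2, FAM72A, the chaperone gene CANX, the importin gene KPNB1, NOTCH4, the kinase gene CDK5 and UBP1, from 327 down to 296 CPM. FAM72A has near-identical copies in the genome, so its count is uncertain. These genes beyond the highest 15 entries were named after their values were seen.

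**Figure D1:**
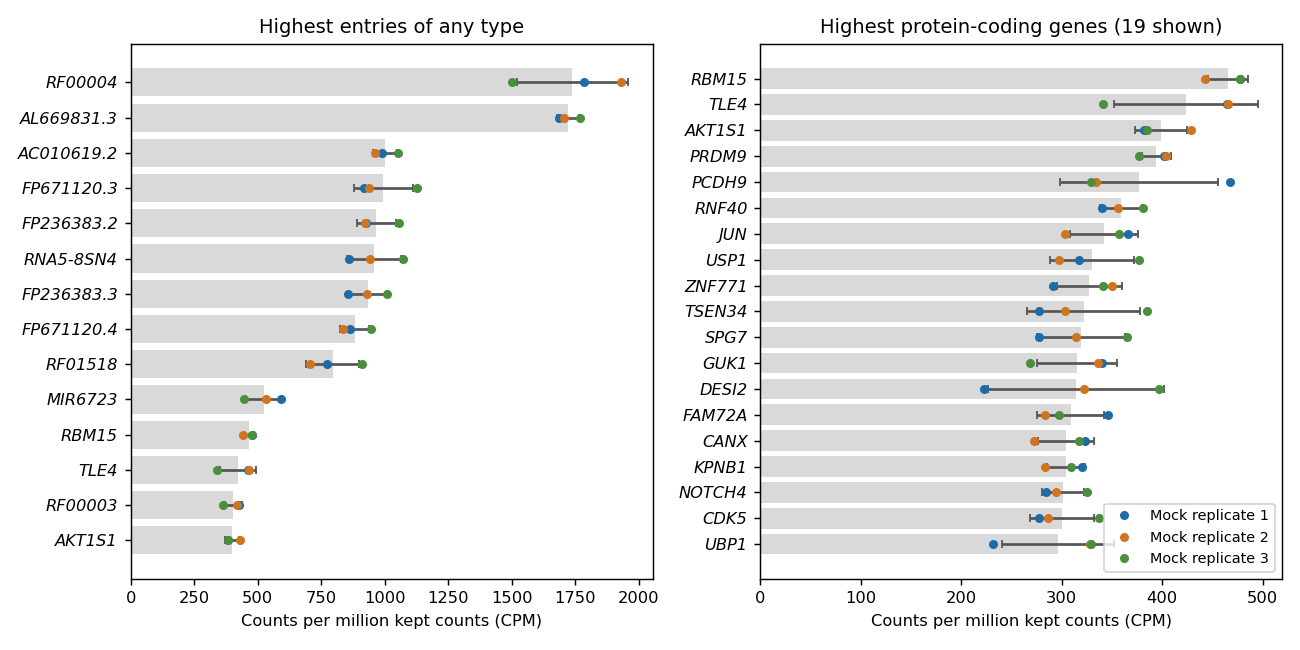
CPM on a linear axis from 0 for the highest entries of any type (left) and the highest protein-coding genes (right, 19 shown) in Mock cells; bars are means, error bars are SD over 3 replicates and coloured points are the replicates. RF00004 and AL669831.3 stand above the other entries at 1739 and 1721 CPM, and the protein-coding genes decline slowly from 466 to 296 CPM.

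The median count mostly rose with gene span up to about 41.1 kb and did not rise further beyond. When the 19039 protein-coding genes were ordered by RefSeq span and divided into 20 bins, the median was 2.18 CPM for the shortest (median span 1.11 kb), 20.3 CPM at 4.32 kb, 40.4 CPM at 41.1 kb and 37.2 CPM for the longest (403 kb). The counted interval is not given in the sources used here, and no exonic lengths were at hand, so a level per kb of span mainly ranks short genes. The 10 highest by that measure included 8 genes of replication histones, led by HIST3H2BB (377 CPM per kb, 54, 64 and 40 counts) and HIST3H2A (334 CPM per kb, 48, 66 and 42 counts), which encode histones H2B and H2A. The others of the 8 were HIST1H2BN, HIST4H4, HIST2H4A, HIST1H2AG, HIST1H4E and HIST2H3C. BOLA2B, an iron-sulfur cluster gene with a near-identical copy, had 270 CPM per kb, and MIF, the gene of a cytokine, had 178 CPM per kb. Several of the histone genes also have near-identical copies, so their single counts are uncertain.

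To compare genes with each other, each gene was given its percentile of CPM among the protein-coding genes in its span bin, separately in every replicate, with 50 as the middle. A gene was counted as upper when its percentile was at least 75 in all 3 replicates, and as lower when it was at most 25 in all 3. Of all protein-coding genes, 17.3% were upper and 15.3% were lower, and the counts of each list are read against these values. Percentiles of the same genes in different replicates had a Spearman correlation of 0.860 to 0.881 over 19039 genes of libraries from the same line.

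Housekeeping genes stood high. Over 142 genes of 8 lists the median percentile was 76.2 ± 0.845 (SD over 3 replicates), 62 were upper (43.7%, against 17.3% of all genes) and none was lower. The remaining 80 were neither. The lowest of them, the proteasome gene PSMB6, had 3, 1 and 0 counts and a percentile of 27.1. So not every housekeeping gene had a high count in Mock cells.

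Reference genes that are used to normalize expression were spread widely. YWHAZ, which encodes a 14-3-3 adaptor protein, was highest at the percentile 99.0 ± 0.787 with 68, 87 and 47 counts, and GAPDH, the glycolytic dehydrogenase, reached 97.4 ± 1.53 with 41, 71 and 39 counts. The actin gene ACTB had 36, 43 and 40 counts and a percentile of 96.5 ± 1.76. The ribosomal protein gene RPLP0 was also upper, at 91.3. GUSB (68.4), TBP (63.5), PPIA (62.9), SDHA (58.2), B2M (52.9), PGK1 (48.7), HPRT1 (43.4) and the transferrin receptor gene TFRC (43.2) were neither. HPRT1, the purine salvage gene, had 4, 15 and 12 counts, and its percentiles spread with an SD of 21.3.

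Among the complexes, the CCT chaperonin, which folds actin and tubulin, had the highest median, 87.9 ± 0.402. Of its 8 subunit genes 7 were upper, from CCT6A at 91.1 down to CCT8 at 84.1, and CCT4 was at 69.3 with 16, 23 and 11 counts. The cytosolic aminoacyl-tRNA synthetases had a median of 84.0 ± 0.456 with 10 of 16 genes upper, and 4 further synthetase genes could not be matched. WARS and YARS, the synthetases for tryptophan and tyrosine, led them at 99.2 ± 0.525 and 99.1, with 62, 66 and 60 counts for WARS. TARS followed at 94.5, and IARS (49.1) and RARS (44.1) were lowest.

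Glycolysis genes had a median of 83.1 ± 3.07 with 9 of 17 upper. The pyruvate kinase gene PKM (49, 73 and 41 counts, percentile 97.5), GAPDH and the enolase gene ENO1 (95.2) were highest, and HK1 (47.9) and PFKP (41.8), genes for a hexokinase and a phosphofructokinase, were lowest. In the spliceosome core 13 of 30 genes were upper, and the median was 77.2 ± 2.75. SF3B2, a subunit of the U2 particle, had 54, 83 and 49 counts (98.9 ± 0.738), U2AF2 stood at 98.5 and SNRPD2 at 95.6, while SNRPF (36.8) and SNRPC (33.5) were lowest.

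The medians of the other 3 complexes and pathways were lower. Of the citric acid cycle genes 6 of 17 were upper with a median of 69.5 ± 5.53, led by SUCLA2 (98.2), the citrate synthase gene CS (90.8) and IDH3G (89.7), with DLST (48.2) and SUCLG2 (41.5) at the end. Of the proteasome genes 8 of 31 were upper with a median of 65.7 ± 5.20. PSMD11 (93.8), PSMC5 (92.4) and PSMD14 (90.6), all of the regulatory particle, were highest, and PSMA2 (30.7) and PSMB6, of the core, were lowest. For RNA polymerase II 4 of 12 subunit genes were upper with a median of 64.6 ± 7.84 (44.4 against genes with at least 10 counts in all), from POLR2I (97.3), POLR2H (97.1) and POLR2A (90.2), the gene of the largest subunit, down to POLR2F (43.3) and POLR2J (40.0).

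**Figure D2:**
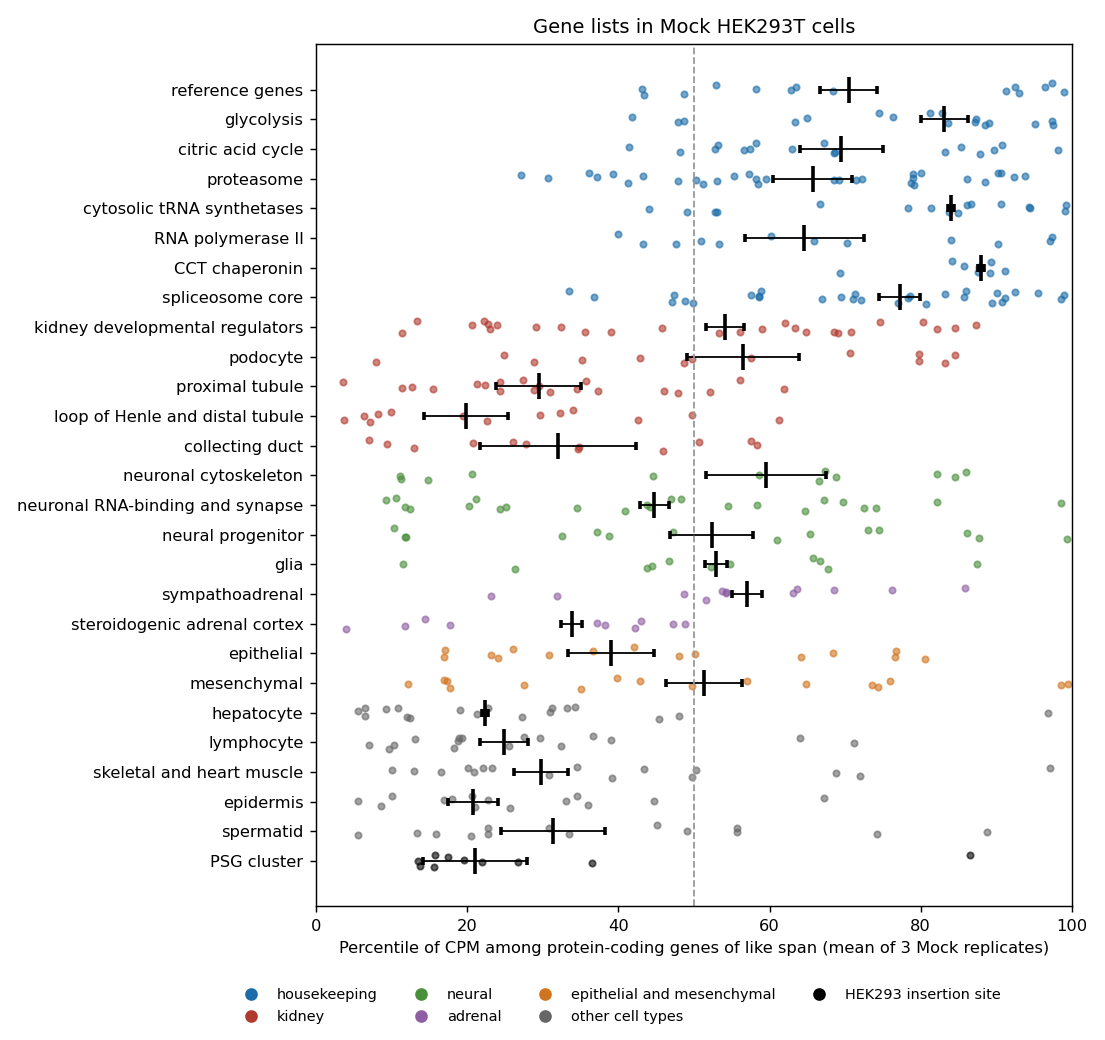
Percentile of each listed gene among protein-coding genes of like span (x axis, 0 to 100, mean of 3 Mock replicates) by list (y axis), coloured by family; black marks are list medians with the SD over replicates, the dashed line is 50, and points are shifted up or down at random only to separate them. The 8 housekeeping lists have medians from 64.6 to 87.9, and the lists of tubule segments and other cell types lie between 19.9 and 32.0.

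Kidney genes lay below the middle. Over 84 genes of 5 lists the median percentile was 35.8 ± 3.10, with 4 upper (4.76%, against 17.3% of all genes) and 15 lower (17.9%, against 15.3%). The lists differed among themselves. The 26 developmental regulators, transcription factors and signals of the embryonic kidney, had a median of 54.1 ± 2.54 with 2 upper and 1 lower, whereas the 45 genes of the tubule segments together had a median of 28.2 ± 5.62 with 0 upper and 13 lower (28.9%). For the developmental regulators these values depended on the setting: without replicate 1 there were 4 lower, without replicate 2 there were 5 upper and 3 lower, and among genes with at least 10 counts in all the median was 41.9 with 1 upper and 5 lower of 23.

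EMX2, a homeobox gene needed for the embryonic urogenital system, was the highest developmental regulator with 28, 27 and 23 counts (percentile 87.4 ± 3.22). HOXA11 had 23, 27 and 16 counts (84.6 ± 2.90) and HOXC11 had 14, 23 and 29 counts (82.2 ± 11.2), both of the Hox group that patterns the kidney field. HOXD11 (74.6), of the same group, was named after its value was seen. The nephron progenitor factor SIX2 had 8, 10 and 9 counts and a percentile of 59.0, near the middle. PAX2 (45.7) and PAX8 (32.4), the paired box factors of the renal lineage, were also named for their role after their values were seen, and PAX8 had 12, 5 and 3 counts. POU3F3 (6, 1 and 0 counts, percentile 11.3), a POU factor of tubule formation, was lowest.

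Podocyte genes, those of the filtering cell of the glomerulus, had a median of 56.5 ± 7.38 with 2 of 13 upper and 1 lower, and a median of 47.4 among genes with at least 10 counts in all and of 47.7 after division by the count density of the chromosome. SYNPO (27, 29 and 20 counts, percentile 84.5), MAGI2 (83.2) and CD2AP (79.8), which encode cytoskeletal and scaffold proteins found in many other cells as well, were highest. PLA2R1, a phospholipase A2 receptor gene, was near the end of the list at 24.9. NPHS1, the nephrin gene, named after its value was seen, stood at 49.7.

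In the proximal tubule, the segment that takes up phosphate, sugar and amino acids, the median was 29.5 ± 5.65, with 0 of 20 upper and 4 lower. SLC34A1, the phosphate carrier gene, was highest with 9, 17 and 14 counts (61.9 ± 12.3), before SLC4A4 (56.2) and the megalin gene LRP2 (52.1). FBP1 (2, 0 and 3 counts, 11.4) and the amino acid carrier gene SLC7A9 (0, 1 and 0 counts, 3.62) were lowest. In the loop of Henle and distal tubule the median was 19.9 ± 5.53, with 0 of 13 upper and 6 lower (46.2%). UMOD, which encodes uromodulin, the main protein of normal urine, had 1 count in each replicate (9.98), SLC12A1, the salt carrier that loop diuretics block, had 0, 3 and 1 counts (6.36), and CLDN10 had 0, 1 and 1 counts (3.68). The magnesium channel gene TRPM6 was the highest of that list at 61.2. Of the collecting duct genes 0 of 12 were upper and 3 were lower, with a median of 32.0 ± 10.3. HSD11B2 (58.3), SCNN1A (57.6) and AQP3 (50.7) led, SCNN1G had 1, 1 and 2 counts (9.33), and FOXI1, the regulator of intercalated cells, was at 0 in all replicates.

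Neural genes stood in the middle, with a median percentile of 50.1 ± 1.10 over 60 genes. Of these 8 were upper (13.3%) and 10 were lower (16.7%), shares near the 17.3% and 15.3% of all genes. A few members were among the highest of all genes. PAX6, a homeobox gene of eye and forebrain progenitors (ENSG00000007372, chromosome 11, 31789026 to 31817961), had 75, 71 and 49 counts, a percentile of 99.4 ± 0.338. SYP, the gene of the synaptic vesicle protein synaptophysin (ENSG00000102003, chromosome X, 49187815 to 49200193), had 50, 83 and 57 counts, a percentile of 98.6 ± 0.579. Of the 27 neural genes that overlap no other RefSeq gene, 1 was upper. Of all 8510 protein-coding genes that overlap no other, 15.3% were upper when ranked among all protein-coding genes. The share was 18.9% of the 10529 genes that overlap another. Whether reads of overlapping genes entered the counts was not tested.

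Among neural progenitor genes, NEUROG2, a proneural factor, and POU3F2, a neuronal POU factor, followed PAX6 at 87.7 and 86.1, and 3 of 14 were upper and 3 lower. Their median of 52.3 ± 5.47 was 38.6 on plain CPM and 49.2 without replicate 2. SOX2, named after its value was seen, was at 74.5 with 10, 14 and 15 counts. OTX2 (1, 1 and 0 counts, 11.8) and FABP7 (0, 4 and 1 counts, 10.3) were lowest. Of the neuronal cytoskeleton genes 2 of 12 were upper and 2 lower (4 without replicate 1). The intermediate filament genes PRPH (31, 24 and 17 counts, 85.9) and NEFL (82.2) and the tau gene MAPT (84.6) led them, while DCX (4, 2 and 2 counts, 11.2) and GAP43 (3, 1 and 3 counts, 11.0), genes of migrating and growing neurons, were lowest.

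In the list of neuronal RNA-binding and synapse genes the median was 44.8 ± 1.92, with 2 of 23 upper and 4 lower. GRIN1 (82.2), a subunit of the NMDA receptor, and GAD1 (74.1), of GABA synthesis, followed SYP, and GAD2 (10.6) and SLC17A6 (5, 0 and 0 counts, 9.21) were lowest. Glial genes had a median of 53.0 ± 1.43 with 1 of 11 upper, the astrocyte filament gene GFAP (22, 29 and 27 counts, 87.4), and 1 lower, the myelin gene MOG (1 count in each replicate, 11.4). OLIG1 (67.7), SLC1A2 (66.7) and S100B (26.3) lay between them. Among genes that overlap no other RefSeq gene, 0 of 8 RNA-binding and synapse genes and 0 of 4 glial genes were upper. With so few genes these counts cannot be told apart from the 15.3% of all genes that overlap no other.

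Adrenal genes had a median of 45.5 ± 2.24 over 22 genes, with 1 upper and 4 lower. The sympathoadrenal list, of factors and enzymes of the adrenal medulla, had a median of 57.0 ± 1.99, which was 48.6 on plain CPM and 40.0 among genes with at least 10 counts in all. GATA2 (22, 33 and 19 counts, 85.8), ISL1 (76.2) and GATA3 (68.6), transcription factors that also act in other lineages, were highest, and PHOX2A (31.9), a factor that defines the lineage, was near the end. The steroidogenic genes of the adrenal cortex had a median of 33.8 ± 1.40 with 0 of 10 upper and 4 lower. CYP17A1 (48.8), NR5A1 (47.3) and CYP11B1 (42.9) led, and the corticotropin receptor gene MC2R and the gene of its partner MRAP ended the list at 3.97 and 11.7.

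Markers of epithelial and mesenchymal cells were set side by side, since the kidney holds both. The 15 epithelial genes had a median of 39.0 ± 5.68 with 1 upper, CLDN4 at 80.6, and 1 lower, and the 16 mesenchymal genes had a median of 51.4 ± 5.02 with 2 upper and 4 lower. This order of the lists turned among genes that overlap no other RefSeq gene. There 1 of 5 epithelial and 0 of 8 mesenchymal genes were upper, too few to set against the 15.3% of all such genes. The list medians were 52.2 and 35.7. Among genes with at least 10 counts in all they were 18.5 (7 of 13 lower) and 41.9, and without replicate 1 there were 3 lower epithelial genes and the mesenchymal median was 48.5. ZEB2, a repressor of E-cadherin, had 64, 73 and 51 counts, with percentiles from 99.4 to 99.5, and the vimentin gene VIM had 57, 70 and 48 counts (98.6 ± 0.189). FN1, the fibronectin gene, was at 75.9. COL3A1 (16.9) and PDGFRA (12.2), genes of fibroblasts, were lowest. Of the epithelial genes, ESRP2 (76.7) and CLDN3 (76.5) followed CLDN4, and ESRP1 (17.1) and KRT7 (17.0) were lowest. The E-cadherin gene CDH1, named after its value was seen, had 9, 6 and 3 counts and a percentile of 26.0.

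Genes of cell types that a culture of this line should not hold were low. Over 78 such genes, of hepatocytes, lymphocytes, muscle, epidermis and spermatids, the median percentile was 24.1 ± 1.40, with 3 upper (3.85%), 22 lower (28.2%) and 10 without a count in any replicate. Of the 48 that overlap no other RefSeq gene, 0 were upper, against 15.3% of all protein-coding genes that overlap no other. In the bin of the shortest genes (up to 1.90 kb) a count of 0 in every replicate gave a mean percentile of 22.8 and did not count as lower, because many genes there share that count. In the hepatocyte list 8 of 18 were lower, and the fibrinogen genes FGA, FGB and FGG and the apolipoprotein gene APOA2 had no count. Yet APOA1, which encodes the main protein of HDL, had 26, 28 and 22 counts (96.9 ± 0.562), followed by CYP2E1 (48.0) and AHSG (45.3).

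Epidermal genes had a median of 20.8 ± 3.27 with 6 of 14 lower, and the desmosomal gene DSC3 (67.2), FLG (44.7) and KRT14 (36.0) were highest, TP63 (8.53) and TGM3 (5.58) lowest. Lymphocyte genes had a median of 24.9 ± 3.14 with 0 of 16 upper and 4 lower (7 without replicate 1). CD8A (71.2) was highest, LCK stood at 39.0, and CD2 (9.68) and CD8B (6.99) were lowest. Spermatid genes had a median of 31.4 ± 6.84 with 1 of 14 upper, ODF2 (88.7), whose product is also a protein of the centrosome, and 3 lower. On plain CPM, without regard to the short span of these genes, the median was 11.3 with 12 lower, and without replicate 3 there were 5 lower. TSSK2 (74.3) was next, TNP2 and ACTL7A shared 55.7 with 1 count in each replicate, and SMCP (13.3) and SPATA19 (5.58) were lowest.

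Muscle genes had a median of 29.7 ± 3.60 with 1 of 16 upper and 1 lower. Without replicate 1 the median was 28.3 with 4 lower, and without replicate 3 it was 29.2 with 3 lower. TTN, the gene of titin, was upper with 48, 52 and 33 counts (97.2 ± 0.826). TNNI3, the cardiac troponin I gene, had 48, 13 and 8 counts, and MYOD1, the myogenic factor, 6, 15 and 10 counts (68.8). DES (2, 0 and 0 counts, 12.9) and MYF5 (no count) were lowest. The percentile of MYH7, a cardiac myosin gene with 68, 6 and 2 counts, was 49.7 with an SD of 43.4, so its mean describes none of the replicates.

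The replicates disagreed strongly in only a few entries. Of 10834 entries with at least 30 counts in all, 285 (2.63%) differed by 3-fold or more between the highest and the lowest replicate, 25 by 5-fold or more and 4 by 10-fold or more, with values below 3 counts set to 3 counts. These 4 were all highest in replicate 1. ACTC1, the cardiac actin gene, had 62, 0 and 2 counts in replicates 1 to 3, SLC25A4, the ADP/ATP carrier of heart and muscle mitochondria, had 52, 3 and 7 counts, and MYH7 had the counts given above. The clone-named entry AL118520.1 had 35, 2 and 1 counts, and the fifth most uneven entry, GPD1L, was lowest in replicate 1 with 2, 15 and 18 counts. What set replicate 1 apart in these genes was not tested. Of the 4 entries only MYH7 is a member of a list above, that of muscle, whose median without replicate 1 is given there.

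HEK293 cells carry the adenovirus fragment at the PSG4 locus on chromosome 19, among genes of pregnancy-specific glycoproteins that are known from the placenta. PSG4 (ENSG00000243137, 43192702 to 43205638) had 32, 34 and 15 counts in replicates 1 to 3, or 86.7 ± 23.4 CPM and a percentile of 86.5 ± 8.31 (SD, n = 3). The other 9 PSG genes were far below it, in every replicate. PSG5, which starts 25 kb away at lower coordinates, was the next with 5, 8 and 6 counts (20.9 ± 4.07 CPM, percentile 36.5), while PSG9, which starts 60.6 kb away at higher coordinates, had 3, 5 and 0 counts (7.94 CPM). PSG6 followed PSG5 with 3, 6 and 2 counts (26.8), and PSG3 (13.7) and PSG1 (13.5) were lowest. Of the 10 genes 4 were lower, and 8 were without replicate 2. After division by the count density of chromosome 19, the highest of all chromosomes, 8 were lower and PSG4 was no longer upper (0 upper, median 13.0), while division by the mean CPM per gene left it upper, with 3 lower. The first gene past the cluster to reach the level of PSG4 was LYPD3, 268 kb away, with 36, 43 and 18 counts. PSG genes are much alike in sequence, and how reads that fit several of them were counted is not given in the sources used here, so the single counts are uncertain. The number of copies of this locus was not measured.

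**Figure D3:**
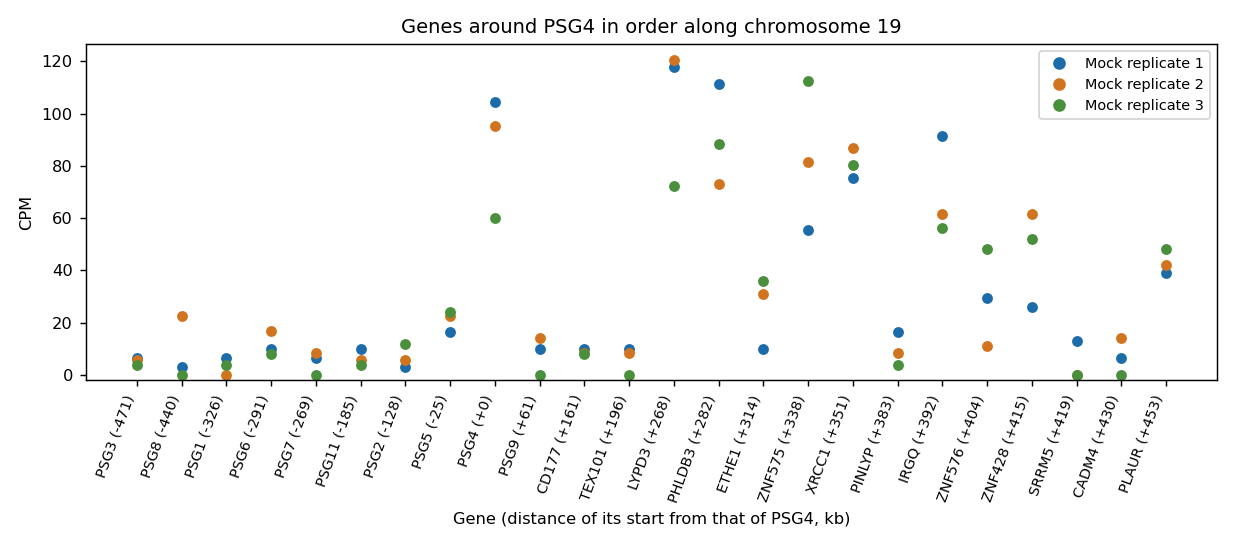
CPM on a linear axis in each Mock replicate for PSG4 and its neighbours in their order on chromosome 19, with the distance of each gene's start from that of PSG4 in kb in brackets. PSG4 lies between 60.2 and 105 CPM while the other PSG genes stay at or below 24.1 CPM.

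The promoters of some of these genes are shown to let the base composition be seen. Each line holds the 250 bases before the RefSeq start of the gene (GRCh38.p14), 5′ to 3′ on the strand of the gene, with every CpG in capitals. The first group consists of genes that stood high: SF3B2 (chr11:66052114-66052363, plus strand), WARS (chr14:100376328-100376577, minus strand), EMX2 (chr10:117542496-117542745, plus strand) and SYP (chrX:49200194-49200443, minus strand), which hold 28, 37, 20 and 31 CpG.
SF3B2: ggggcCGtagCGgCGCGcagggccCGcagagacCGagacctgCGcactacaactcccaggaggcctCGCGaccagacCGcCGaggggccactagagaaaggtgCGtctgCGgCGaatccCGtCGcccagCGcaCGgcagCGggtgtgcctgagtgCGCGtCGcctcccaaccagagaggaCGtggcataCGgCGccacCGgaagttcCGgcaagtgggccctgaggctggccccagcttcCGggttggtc
WARS: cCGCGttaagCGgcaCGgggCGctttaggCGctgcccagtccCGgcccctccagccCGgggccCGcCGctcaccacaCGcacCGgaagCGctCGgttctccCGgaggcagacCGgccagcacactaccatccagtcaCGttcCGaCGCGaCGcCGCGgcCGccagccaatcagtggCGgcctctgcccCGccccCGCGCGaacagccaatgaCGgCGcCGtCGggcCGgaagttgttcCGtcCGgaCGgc
EMX2: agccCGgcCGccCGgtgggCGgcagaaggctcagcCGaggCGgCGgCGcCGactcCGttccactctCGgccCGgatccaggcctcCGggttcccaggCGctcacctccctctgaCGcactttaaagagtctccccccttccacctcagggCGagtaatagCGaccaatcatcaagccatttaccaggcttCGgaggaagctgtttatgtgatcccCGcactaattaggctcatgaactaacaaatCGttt
SYP: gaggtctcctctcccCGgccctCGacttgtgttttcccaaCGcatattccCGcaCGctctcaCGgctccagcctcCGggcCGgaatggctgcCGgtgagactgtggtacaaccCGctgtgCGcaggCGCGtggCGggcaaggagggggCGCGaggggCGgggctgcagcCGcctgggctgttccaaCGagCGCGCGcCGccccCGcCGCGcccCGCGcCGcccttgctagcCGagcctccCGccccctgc

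The second group consists of genes that stood low: UMOD (chr16:20352716-20352965, minus strand), SLC7A9 (chr19:32869768-32870017, minus strand) and FGB (chr4:154562730-154562979, plus strand), which hold 2, 3 and 0 CpG.
UMOD: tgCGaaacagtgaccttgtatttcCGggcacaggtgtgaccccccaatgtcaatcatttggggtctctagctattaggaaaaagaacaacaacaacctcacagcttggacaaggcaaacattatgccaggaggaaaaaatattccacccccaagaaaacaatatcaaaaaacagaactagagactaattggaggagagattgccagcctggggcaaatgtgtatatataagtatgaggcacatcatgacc
SLC7A9: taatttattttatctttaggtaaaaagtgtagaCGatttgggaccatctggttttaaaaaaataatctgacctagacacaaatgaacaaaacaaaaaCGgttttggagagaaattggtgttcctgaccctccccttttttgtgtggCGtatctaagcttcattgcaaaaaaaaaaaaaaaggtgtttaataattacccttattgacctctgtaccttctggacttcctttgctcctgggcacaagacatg
FGB: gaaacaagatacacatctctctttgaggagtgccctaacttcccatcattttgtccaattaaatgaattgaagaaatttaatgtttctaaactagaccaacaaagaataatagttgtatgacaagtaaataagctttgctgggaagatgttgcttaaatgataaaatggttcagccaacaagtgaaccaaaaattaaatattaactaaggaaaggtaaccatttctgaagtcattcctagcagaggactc

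PSG4 (chr19:43205639-43205888, minus strand) and RBM15 (chr1:110339127-110339376, plus strand) are shown because they depart from this order. PSG4 has 4 CpG and a percentile of 86.5, and RBM15, the highest protein-coding gene, has 13 CpG, fewer than the genes of the first group.
PSG4: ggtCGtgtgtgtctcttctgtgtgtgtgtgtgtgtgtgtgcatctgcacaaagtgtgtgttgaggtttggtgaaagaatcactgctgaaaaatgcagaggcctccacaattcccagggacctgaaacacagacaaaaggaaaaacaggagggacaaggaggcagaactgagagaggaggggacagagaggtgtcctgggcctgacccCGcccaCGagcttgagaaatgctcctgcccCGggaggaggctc
RBM15: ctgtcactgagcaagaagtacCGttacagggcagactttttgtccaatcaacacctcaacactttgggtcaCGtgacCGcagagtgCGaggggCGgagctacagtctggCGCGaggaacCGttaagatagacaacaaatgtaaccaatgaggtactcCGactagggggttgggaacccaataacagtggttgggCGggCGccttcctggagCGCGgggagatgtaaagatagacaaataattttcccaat

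Over all genes with a promoter in the RefSeq table (15241 of 19039), the level moved with the number of CpG in the window from 250 bases before to 50 bases after the start. The genes were divided by CpG into 5 groups of like size. In the group with fewest CpG (0 to 6) the median percentile was 22.8 ± 1.14 (SD over 3 replicates), in the next (6 to 18) it was 43.7 ± 1.29, and in the upper 3 groups it was 62.2 ± 1.01, 62.6 ± 0.350 and 60.5 ± 0.658. So the level did not go up further beyond about 18 CpG. In the lowest group 5.15% of the genes were upper and 39.0% lower, and in the last 21.9% were upper and 4.72% lower. The Spearman correlation over the genes was 0.382, a description of genes that share libraries and base composition. GC content went up with CpG, from a median of 45% to 75.7%, and the part of base composition in the yield of fragments and reads was not tested.

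Sequence motifs were counted in the same windows on both strands. The GC box GGGCGG, the site of SP1 factors, was present in 59.2% of all promoters, in 71.0% of those of upper genes and in 31.2% of those of lower genes. Its letters contain a CpG, so it is not independent of the count above. The ETS motif CCGGAAG was present in 14.4% of all promoters, in 20.05% of those of upper genes and in 5.29% of those of lower genes, and the CRE motif TGACGTCA in 2.64%, 3.48% and 1.01%. The reverse order was seen for TATAAA, with 9.58%, 6.68% and 17.3%, and for the AP-1 motif TGACTCA, with 3.67%, 2.63% and 5.60%. CCAAT was present in 36.5%, 40.1% and 37.7%. Among the promoters of the middle CpG group only (18 to 26 CpG), genes with a GC box had a median percentile of 62.6 and those without it 61.5. For the ETS motif the medians were 63.8 and 61.5, so that for these 2 motifs most of the difference was not seen at like CpG. With and without TATAAA the medians were 60.2 (167 genes) and 62.5, against 33.4 and 52.9 over all CpG groups. For the CRE motif they were 63.3 (95 genes) and 62.2, against 63.3 and 50.6 over all groups. Most of the difference was thus not seen at like CpG for TATAAA and CRE either. For AP-1 the medians in the middle group were 50.4 (60 genes) and 62.5. With and without the NRF1 motif GCGCATGC they were 66.1 (181 genes) and 62.0, against 61.5 and 50.4 over all CpG groups. For the E-box CACGTG they were 62.8 and 62.1 in the middle group. A match is a run of letters and no evidence of binding.

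By chromosome, the median percentile of the protein-coding genes ranged from 33.5 ± 1.12 on chromosome X (828 genes) to 57.7 ± 0.310 on chromosome 22 (420 genes). Chromosomes 16 and 17 followed chromosome 22 at 56.6 ± 1.27 and 56.3 ± 0.670, values that do not differ beyond their spread, and chromosomes 18 and 20 came before X, both at 42.8. Of the genes on X, 9.06% were upper and 25.5% lower, and of those on chromosome 17, 23.4% were upper and 9.33% lower. The mean CPM per gene was 27.0 ± 0.414 on X, 32.3 ± 0.516 on chromosome 20 and 49.6 ± 0.815 on chromosome 22. Per kb of gene span the order was another, from 0.330 CPM on chromosome 18 to 1.49 CPM on chromosome 19. The labels give no karyotype for these cells, so that copy number and openness cannot be told apart here.

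Stretches of neighbouring genes also stood apart. Among 349 windows of 5 Mb with at least 20 protein-coding genes, the highest median percentile was 83.8 ± 0.501, on chromosome 1 from 225000001 to 230000000, where 24 of 47 genes were upper (51.1%) and 1 was lower. This window holds GUK1 and the histone genes HIST3H2A and HIST3H2BB named above. The next was chromosome 5 from 175000001 to 180000000, with 78.3 ± 1.62 and 33 of 70 genes upper, which holds CANX. The lowest were chromosome 4 from 65000001 to 70000000, with 10.05 ± 3.24 and 21 of 25 genes lower, and chromosome 19 from 20000001 to 25000000, with 11.6 ± 3.59 and 23 of 33 genes lower. Of the 33 genes of the last window 32 encode numbered zinc finger proteins, while the window on chromosome 4 holds 0 of them. How reads were assigned among genes of like sequence was not tested.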

How the data were processed

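ATAC-Seq libraries were made from freshly isolated nuclei with Nextera transposase, per the labels. The authors deposited whole-number counts of reads per gene entry, without normalization, for all 12 samples in 1 table, of which only the 3 Mock columns were used. The submitters' processing notes name bcl2fastq, Bowtie2, HTSeq and the build GRCh38. Their versions, the annotation, the interval counted per gene, the treatment of reads that fit several places, the shift of reads for the transposase and the removal of duplicates are not given in the sources used here. Exonic against intronic reads therefore could not be separated.

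Entries with a symbol starting with MT- (37) and symbols of nuclear copies of mitochondrial genes (412) were dropped, and the counts were scaled to CPM on what was left. Of the 412 dropped by symbol a few are other genes, among them MTCP1 and MTFP1. Symbols were matched to the RefSeq gene table of GRCh38.p14 (32831 by symbol, 1124 by synonym, 18485 not matched), which gave gene type, chromosome and span. For 19039 protein-coding genes the mid-rank percentile of CPM within 20 bins of like span was taken per replicate, and values are means ± SD over 3 replicates. For chromosomes and windows the median percentile is that of the genes' mean percentiles, with the SD of the 3 replicate medians. With 1 group no hypothesis test applies, and none was made. The spread between replicates was estimated with edgeR 4.0.16 in R 4.3.3 (common dispersion, intercept only), after a check on simulated counts. Depth and its precision are given with the results: with a median of 8 to 11 counts per protein-coding gene, a single gene's percentile is coarse. Pairs of replicates differed by a chi-square of 1.06 to 1.18 per degree of freedom over 15403 to 16429 entries, near sampling noise, but all 3 were kept as separate samples, as labelled. Their SD may be partly technical.

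The gene lists (431 genes, 426 with a value) and the promoters shown were chosen with earlier results of these data known. Named were the 15 entries with the highest CPM, the 10 protein-coding genes with the highest CPM per kb of span with at least 10 counts in every replicate, the 3 highest and 2 lowest members of each list, the 14 reference genes, the 2 highest entries of each gene type, and the 5 most uneven entries. Genes named after their values were seen are marked as such. Some genes that meet these rules are not reported here. Motifs and CpG were counted in RefSeq promoter windows with pandas 2.3.3. Alternatives were plain CPM percentiles, other span bins, filters, chromosome corrections, other limits, and each replicate left out.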

Additional observations from a re-analysis of the deposited data

Results flagged for a closer look

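Counts outside the measurement used above were also present in the Mock libraries. Mitochondrially encoded genes took 26.8% ± 0.321 (SD, n = 3) of all counts, with 26.9%, 26.4% and 27.0% in replicates 1 to 3, and entries with the symbols of their nuclear copies took another 2.47% ± 0.0809. Both shares are above the limit that a count of 0 allows and differed little between the replicates. These entries were left out of every level given here and affect the levels through the depth that remained. MIR6723, which lies in a nuclear insertion of mitochondrial DNA but is not marked by its symbol, was kept.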

How the results depend on the processing

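Housekeeping genes lay above 50 and kidney genes and genes of other cell types below 50 in median percentile under every alternative that was run. The kidney value pools lists that differ. Its developmental regulators stayed above 50 except among genes with at least 10 counts in all (41.9). Its podocyte list did so except there (47.4) and after division by the count density of the chromosome (47.7). The neural median ranged from 44.7 to 52.5. Without regard to span (plain CPM) 1 housekeeping gene was lower, the neural median was 48.0 with 5 lower, and that of other cell types 18.6 with 38 lower. After division by the count density of the chromosome the housekeeping median was 71.1 and the neural median 52.5, and after division by the mean CPM per gene of the chromosome, chosen after seeing the data, the housekeeping median was 75.3. Among genes with at least 10 counts in all, which leaves fewer genes to rank against, the housekeeping median was 67.6 with 6 lower, the kidney median 28.5 with 2 upper, the neural median 48.2 with 3 upper, and the median of other cell types 28.7 with 6 lower. Among genes that overlap no other RefSeq gene, which leaves fewer members, the housekeeping median was 80.9, the kidney median 39.6 with 6 lower, the neural median 44.7 with 1 upper and 6 lower, and of other cell types 0 were upper and 13 lower. With the limits at 90 and 10 there were 15 upper housekeeping genes, 0 upper and 3 lower kidney genes, 2 upper and 0 lower neural genes, and 5 lower genes of other cell types.

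Leaving out 1 replicate at a time gave 0 to 1 lower housekeeping genes (1 without replicate 1) and 5 to 8 upper kidney genes against 4 (8 without replicate 2), where fewer replicates have to pass the limit. The coefficient of variation then ranged from 0.0595 without replicate 1 to 0.102 without replicate 2. Protein-coding genes took 55.9% of all counts with mitochondrial entries and copies kept, 79.6% without joined and ribosomal entries and 82.9% among entries with at least 10 counts. With only the mitochondrially encoded entries dropped, 73.2% of the counts were kept. The ratio of the highest to the lowest chromosome was 4.52 per kb of summed span, 4.05 by the median gene per kb, and 1.83 by mean CPM per gene, a measure added after seeing the data. Over all settings and results, 297 values moved by less than their limit and 108 by more. No paired analysis was possible because the Mock replicates form a single group. Depth limits single genes most: most genes of the tissue lists had fewer than 10 counts in a library, and the effect of 1 read on them is large.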

Other observations

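Some gene families of receptors and secreted proteins that act in few cell types had few counts in Mock cells. Of 377 olfactory receptor genes, which detect odours in the nose, 0 were upper, 111 (29.4%) were lower and 79 had no count in any replicate, against 17.3% upper and 15.3% lower over all protein-coding genes. Of 41 defensin genes, which encode antimicrobial peptides, 29 (70.7%) were lower and 23 had no count. No gene was upper among 94 keratin-associated protein genes, 24 bitter taste receptor genes and 13 interferon alpha genes either, but few were lower: 0, 2 (8.33%) and 0. Their median spans were 0.829, 1.09 and 0.970 kb, and in the bin of the shortest genes a count of 0 in every replicate was not enough to be lower. Numbered zinc finger genes had a median percentile of 40.3 over 507 genes, with 47 upper and 109 (21.5%) lower.

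Heart genes were looked at after the uneven entries of replicate 1 had been seen. The list of 27 genes of the cardiac sarcomere and heart metabolism was written at that point, so that it describes these libraries only. Its summed level was 1503, 592 and 698 CPM in replicates 1 to 3. Without ACTC1, SLC25A4, MYH7 and TNNI3 it was 752, 530 and 622 CPM, and 9 of these 23 genes were highest in replicate 1. The share of all genes that were highest in replicate 1 was not taken, so the 9 are not read as an excess. TPM1, a tropomyosin gene, had 44, 20 and 10 counts, MYH6 had 16, 8 and 3, MYL3 had 10, 2 and 2, CKMT2 had 12, 2 and 1, and MYL2 had 9, 1 and 0. NPPA (1, 0 and 1 counts), NPPB (0, 0 and 1) and PLN (0, 2 and 0) were near 0 in every replicate. TNNT2 had 35.9, 33.6 and 28.1 CPM, and RYR2 was lowest in replicate 1 with 78.4, 81.3 and 120 CPM. HSPB7 (4, 3 and 12 counts) and ACTN2 (13, 17 and 20 counts) were highest in replicate 3. The cause was not tested.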
